A study of Homo sapiens with 9 samples.

Results

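The pregnancy-specific glycoprotein (PSG) genes are a cluster of closely related genes on human chromosome 19. The 10 genes followed here are PSG1, PSG2, PSG3, PSG4, PSG5, PSG6, PSG7, PSG8, PSG9 and PSG11, out of 64253 gene identifiers with a read count. They were chosen by name, after PSG4 had stood among the largest decreases between shRRM2/shp16 and shRRM2 cells in an earlier look at these libraries. Values of that comparison are therefore given as a description, with no test. The other comparisons share libraries with it, and so they are not fully independent of the choice.

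RNA was sequenced from IMR90, fibroblasts of human fetal lung that divide a limited number of times in culture, in 3 groups of 3 libraries named a, b and c. The control group received pLKO.1 lentiviral vector in both of 2 infections given 24 hours apart; it is labelled empty for the samples, and as carrying GFP in the treatment protocol. The shRRM2 group received a pLKO.1 short hairpin RNA (shRNA) against RRM2, the small subunit of the enzyme that makes deoxyribonucleotides, and then vector; the series design names this state senescence after loss of deoxyribonucleotides. The shRRM2/shp16 group received the same hairpin and then one against p16, a cell cycle inhibitor encoded by CDKN2A; the series design names this state bypass of that senescence. All groups shared 2% oxygen, population doubling 30 and 7 days in 3 ug/mL puromycin. A single hairpin construct is named for each target. Nothing in the labels says that the 3 libraries of a group came from separate infections, so p-values measure the spread between these libraries, which may be technical.

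PSG proteins belong to the carcinoembryonic antigen family, a branch of the immunoglobulin superfamily that also holds the CEACAM adhesion molecules. They are secreted in large amounts by the syncytiotrophoblast, the fused outer layer of the placenta, and are found in the blood during pregnancy. PSG1 and PSG9 are known to bind and activate latent TGF-beta. Fibroblasts are not their main site of expression, and the levels here were low.

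All 10 genes lie on the minus strand of chromosome 19 in the GRCh38 build, within 547893 bases (GENCODE release 29). The order by rising coordinate is PSG3, PSG8, PSG1, PSG6, PSG7, PSG11, PSG2, PSG5, PSG4 and PSG9. PSG5 (ENSG00000204941) spans chr19:43166256-43186536, and PSG4 (ENSG00000243137) lies next to it at chr19:43192702-43207299. PSG3 (ENSG00000221826), at chr19:42721638-42740569, is at the other end of the cluster.

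RefSeq promoter sequence (GRCh38.p14) was at hand for 3 of the 10 genes, PSG3, PSG5 and PSG4. The 250 bases before each RefSeq start are shown because the 3 genes include the most abundant pair, PSG4 and PSG5, and PSG3 from the other end of the cluster. Capitals mark a GC box (GGGCGG, here on the opposite strand) in PSG3 and PSG4 and a CACCC box in PSG5.
PSG3 chr19:42740482-42740731 (minus strand): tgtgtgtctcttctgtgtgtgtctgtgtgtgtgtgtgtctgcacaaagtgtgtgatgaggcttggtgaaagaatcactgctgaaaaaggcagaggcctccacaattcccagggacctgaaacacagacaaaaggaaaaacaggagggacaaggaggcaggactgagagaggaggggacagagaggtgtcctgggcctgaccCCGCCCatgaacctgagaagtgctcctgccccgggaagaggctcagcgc
PSG5 chr19:43186537-43186786 (minus strand): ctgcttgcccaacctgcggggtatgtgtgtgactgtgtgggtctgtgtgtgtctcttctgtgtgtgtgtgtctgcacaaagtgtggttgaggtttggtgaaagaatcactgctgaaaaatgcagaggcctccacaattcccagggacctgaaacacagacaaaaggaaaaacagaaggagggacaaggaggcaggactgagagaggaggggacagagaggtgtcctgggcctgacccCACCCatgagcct
PSG4 chr19:43205639-43205888 (minus strand): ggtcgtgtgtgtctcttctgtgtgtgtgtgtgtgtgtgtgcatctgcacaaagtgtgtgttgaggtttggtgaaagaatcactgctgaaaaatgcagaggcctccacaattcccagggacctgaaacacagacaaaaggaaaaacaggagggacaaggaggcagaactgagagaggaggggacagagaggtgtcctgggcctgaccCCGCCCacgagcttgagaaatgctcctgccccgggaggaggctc
The PSG3 and PSG4 starts in RefSeq lie inside the longer GENCODE gene spans. The bases shown thus lie partly (PSG3) or wholly (PSG4) inside those spans. The PSG3 and PSG4 stretches were 91.4% identical over their alignment, with a longest shared run of 71 bases. PSG5 was 74.6% identical to PSG4, with a shared run of 89 bases, and its RefSeq start sits at another point of the shared sequence.

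Each motif was searched on both strands of these upstream windows and of 35116 windows of the same length, and motifs may overlap one another. GGGCGG was in 2 of the 3 PSG windows and in 42.6% of all windows, and CACCC in 1 of 3 and in 54.7%. The ETS core GGAAG was in 1 of 3 (PSG3) and in 65.1%. TATAAA was in 0 of 3 and in 10.7%. The repeat GTGTGTGT was in 3 of 3 and in 2.34% of all windows. The 3 PSG windows are alike in sequence (72.4% to 91.4% identical), so they do not count as separate observations. A match is a description of letters and not a binding site.

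The family as a whole was low in control, higher in shRRM2 and lowest in shRRM2/shp16. The summed level of the 10 genes, in CPM, that is read counts brought to a common library size with TMM scaling,, was 20.4, 22.0 and 22.2 in control libraries a, b and c. It was 55.9 to 56.1 in shRRM2 a and c and 52.3 in b, and 2.90, 3.38 and 4.51 in shRRM2/shp16. The 3 groups did not overlap. The means were 21.5 ± 0.970 in control, 54.8 ± 2.16 in shRRM2 and 3.60 ± 0.825 in shRRM2/shp16 (SD, n = 3). The sum was thus 2.54-fold higher in shRRM2 than in control, 15.2-fold lower in shRRM2/shp16 than in shRRM2, and 5.99-fold lower than in control. In bulk RNA, fewer cells that express these genes and less RNA per cell cannot be told apart.

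**Figure D1:**
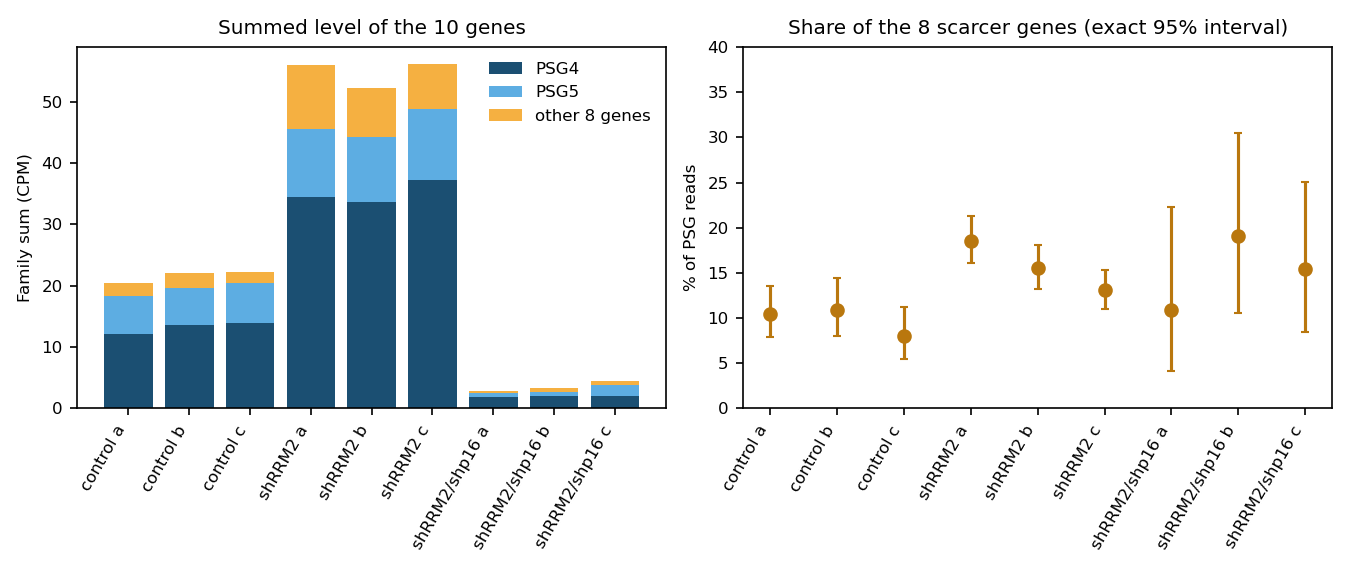
Left, the summed level of the 10 PSG genes in CPM in each library, with PSG4, PSG5 and the other 8 genes stacked; right, the share of PSG reads from those 8 genes with its exact (Clopper-Pearson) 95% interval for counting error. The sums lie near 21.5 CPM in control, 54.8 in shRRM2 and 3.60 in shRRM2/shp16, and the intervals of the share are widest in shRRM2/shp16, where 55 to 84 PSG reads were counted.

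PSG4 gave most of the family's reads in every group. It had 290, 244 and 233 reads in control, 544, 583 and 649 in shRRM2, and 35, 42 and 39 in shRRM2/shp16. The libraries of each group lay close together and the 3 groups were far apart. In CPM the means were 13.2 ± 0.935, 35.1 ± 1.88 and 2.01 ± 0.141 (SD, n = 3). PSG4 rose in shRRM2 against control: the log2 fold change was 1.42 ± 0.07 (SE), with an adjusted p of 3.1e-21 by the edgeR quasi-likelihood test. It fell in shRRM2/shp16 against control (log2 fold change -2.70 ± 0.12; adjusted p = 3.6e-23).

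PSG5, the second most abundant, had 147, 107 and 110 reads in control, 175, 184 and 202 in shRRM2, and 14, 13 and 32 in shRRM2/shp16. The groups did not overlap, and shRRM2/shp16 c was above the other libraries of its group. The means were 6.22 ± 0.292, 11.1 ± 0.488 and 1.03 ± 0.593 CPM (SD, n = 3). PSG5 rose in shRRM2 against control (log2 fold change 0.84 ± 0.12; adjusted p = 8.8e-08, edgeR), the smallest rise of the 6 tested genes. It fell in shRRM2/shp16 against control (log2 fold change -2.59 ± 0.19; adjusted p = 8.2e-16), and by -3.16 without library c.

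PSG9, which activates latent TGF-beta, had 15, 11 and 11 reads in control, 52, 41 and 45 in shRRM2, and 3, 1 and 3 in shRRM2/shp16. The groups were again separate. It rose in shRRM2 (log2 fold change 2.10 ± 0.26; adjusted p = 3.6e-09) and fell in shRRM2/shp16 against control (-2.32 ± 0.50; adjusted p = 9.5e-05, edgeR).

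PSG1, the best studied family member, had 17, 16 and 9 reads in control, 36, 39 and 20 in shRRM2, and 1, 1 and 5 in shRRM2/shp16. Library c was the lowest of the 3 in control and in shRRM2 and the highest in shRRM2/shp16, with no overlap between groups. PSG1 passed the filter on low counts only through its shRRM2 libraries, so its being tested is tied to its rise. The rise in shRRM2 was 1.39 ± 0.31 (log2; adjusted p = 1.4e-04, edgeR). The fall in shRRM2/shp16 against control was -2.50 ± 0.54 (log2; adjusted p = 9.5e-05, edgeR), and -3.64 without shRRM2/shp16 c.

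PSG6 and PSG3 also passed the filter only through their shRRM2 libraries, so their being tested is tied to their rise. PSG6 had 7, 6 and 5 reads in control, 17, 20 and 24 in shRRM2, and 1, 2 and 1 in shRRM2/shp16, with no overlap between groups. It rose in shRRM2 (log2 fold change 1.95 ± 0.36; adjusted p = 9.9e-06) and fell in shRRM2/shp16 against control (-2.05 ± 0.66; adjusted p = 0.0064, edgeR). PSG3 had 5, 3 and 0 reads in control, 29, 14 and 15 in shRRM2, and 0, 2 and 1 in shRRM2/shp16. Its control and shRRM2/shp16 libraries overlapped. It had the largest fitted rise of the 6 tested genes in shRRM2 (log2 fold change 3.02 ± 0.51; adjusted p = 1.9e-06), on 8 control reads, and 3.64 without control a. In shRRM2/shp16 against control its log2 fold change of -1.28 ± 0.97 did not pass the test (adjusted p = 0.256, edgeR); it was -0.65 without control a and -2.10 without shRRM2/shp16 b, and passed in neither case (adjusted p = 0.663 and 0.161).

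The other 4 genes were below the filter on low counts and have no fitted value. PSG2 had 5, 3 and 0 reads in control, 8, 6 and 9 in shRRM2, and 1, 2 and 1 in shRRM2/shp16. PSG7 had 1, 1 and 3 reads in control, 9, 10 and 3 in shRRM2, and 0, 1 and 2 in shRRM2/shp16. PSG7 was the only member whose control and shRRM2 libraries overlapped. PSG8 had 0, 2 and 1 reads in control, 9, 4 and 6 in shRRM2, and 0, 3 and 0 in shRRM2/shp16. PSG11 had 1 read in each control library, 4, 7 and 6 in shRRM2, and 0, 1 and 0 in shRRM2/shp16. For PSG8 and PSG11 every shRRM2 library was above every other library, and neither can be ranked between control and shRRM2/shp16, with 3 reads or fewer in each group.

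Pooled over libraries, the ratio of shRRM2 to control for these scarce genes was 3.33 for PSG2, with a 95% exact interval for counting error of 1.44 to 8.62. The ratio was 5.10 for PSG7 (1.88 to 17.2), 7.34 for PSG8 (2.16 to 38.7) and 6.57 for PSG11 (1.90 to 35.0). For comparison, the same pooled ratio was 2.68 for PSG4 (2.46 to 2.92) and 1.79 for PSG5 (1.56 to 2.04). The intervals of PSG2, PSG7, PSG8 and PSG11 are wide, and each overlaps that of PSG4. They cover counting error and no difference between libraries, and reads without molecular identifiers are not independent molecules.

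**Figure D2:**
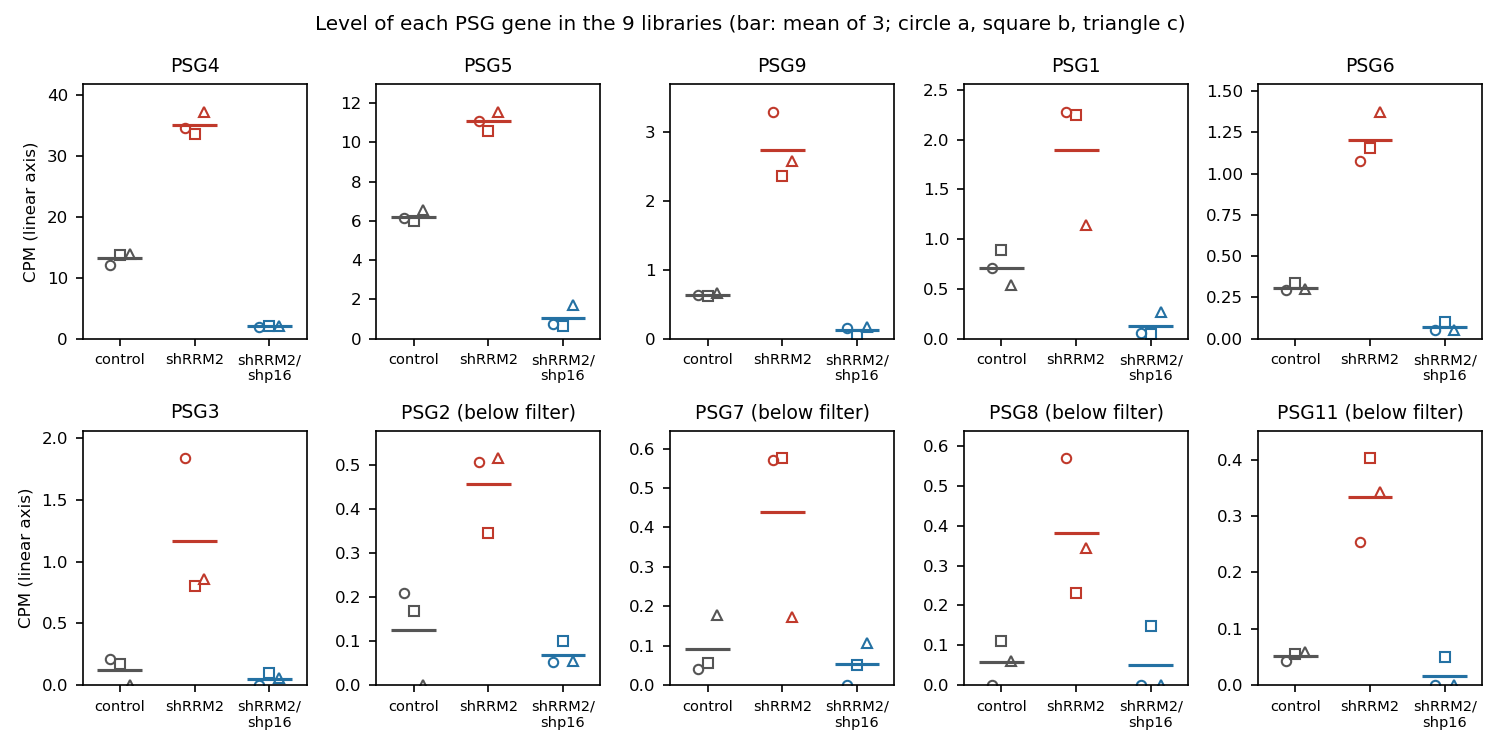
Level of each PSG gene in the 9 libraries, in CPM on a linear axis that starts at 0 and differs between panels; circles, squares and triangles are libraries a, b and c and bars are means of 3. In all 10 panels the shRRM2 mean is the highest, and PSG7 is the panel where a shRRM2 library reaches the control range.

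In shRRM2 against control, 6 of the 10 genes were tested and 6 rose, with a median log2 fold change of 1.68 (range 0.84 to 3.02). Over all 16561 tested genes, 29.0% were called higher and 31.8% lower, with a median of 0.00. PSG1, PSG3 and PSG6 passed the filter only through their shRRM2 libraries, so their presence among the tested genes is tied to their rise, whereas PSG4, PSG5 and PSG9 also passed in control. With no filter, 10 of 10 PSG genes were called higher, against 12.7% of 35976 genes. The 9 genes other than PSG7 had every shRRM2 library above every control library, which held for 30.7% of tested genes.

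In shRRM2/shp16 against shRRM2, the comparison that led to the choice, the log2 fold changes of the 6 tested genes ran from -4.42 for PSG9 to -3.43 for PSG5, with a median of -4.06. PSG4 had -4.12 ± 0.10 (SE) and PSG6 -3.99. PSG3 had -4.30, and -5.12 without shRRM2/shp16 b, and PSG1 had -3.88, and -5.03 without shRRM2/shp16 c. All 6 were lower by at least 2-fold, and so were 6.59% of tested genes; with no filter it was 10 of 10, against 17.1%. In the same fit 31.9% of tested genes were called higher and 29.1% lower. Every shRRM2/shp16 library lay below every shRRM2 library for 10 of 10 genes and for 31.1% of tested genes. Since these values chose the family, nothing is read from those counts.

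The pooled reads of the 4 genes below the filter gave ratios of shRRM2 to shRRM2/shp16 of 6.56 for PSG2 (95% exact interval 2.24 to 26.1), 8.37 for PSG7 (2.51 to 43.6) and 7.22 for PSG8 (2.13 to 38.1). The ratio was 19.4 for PSG11, with an interval of 3.04 to 810 that rests on 1 read in shRRM2/shp16. In the authors' deposited table, which holds FPKM values for this comparison, PSG4 went from 30.8 to 2.33 and PSG5 from 13.96 to 1.08. The log2 fold changes in the authors' deposited table ran from -4.68 for PSG3 to -2.63 for PSG6 over the 10 genes. In the edgeR fit PSG3 had -4.30 and PSG6 -3.99. The authors' FPKM levels lie above the RPKM given below for the same groups (5.59 for PSG4 in shRRM2), and the reason was not tested.

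In shRRM2/shp16 against control, the family sum was lower. Of the 6 tested genes 5 fell, and PSG3 did not pass, with a median log2 fold change of -2.41. Over all tested genes 32.4% were called lower and 30.0% higher. With no filter it was 5 of 10 genes, against 15.5% of all genes. The same 5 genes, PSG1, PSG4, PSG5, PSG6 and PSG9, had every shRRM2/shp16 library below every control library, as did 33.8% of tested genes. The 5 others had at most 8 control reads in all, which leaves little room to measure a fall.

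**Figure D3:**
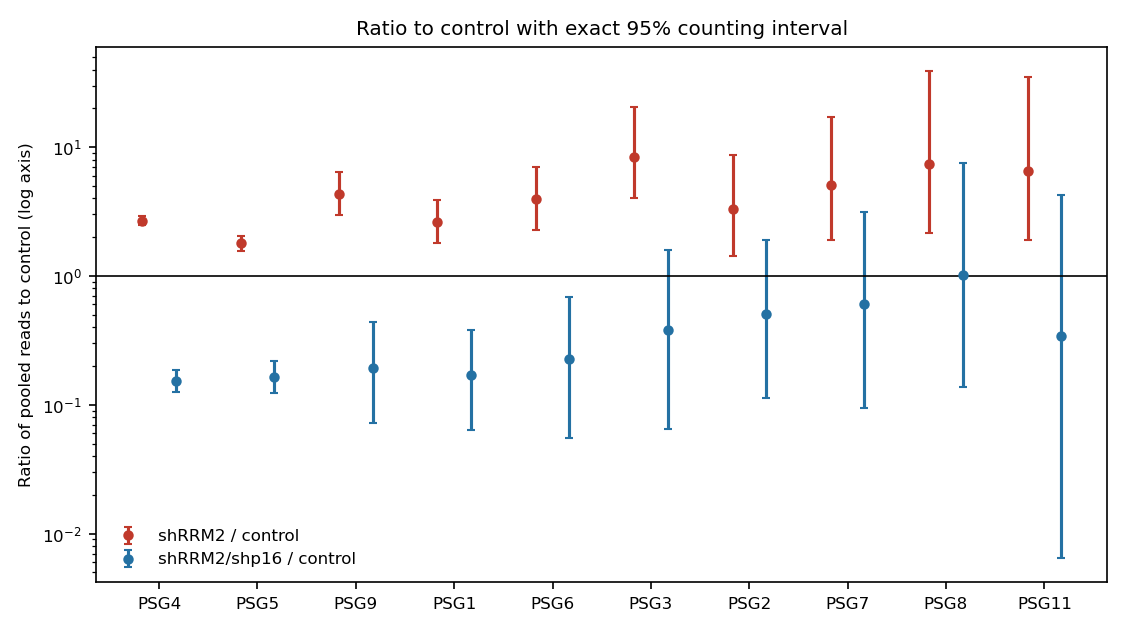
Ratio of pooled reads per gene, scaled for library size, in shRRM2 (red) and shRRM2/shp16 (blue) to control on a log axis, with exact 95% intervals for counting error from 3 libraries each. The red points lie above 1 for all 10 genes, and the blue intervals stay below 1 for PSG4, PSG5, PSG9, PSG1 and PSG6.

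The rise in shRRM2 was uneven across the family. PSG4 and PSG5 together were 2.38-fold higher than in control, and the other 8 genes together 4.09-fold higher. These 8 gave 10.5%, 10.9% and 8.04% of PSG reads in control a, b and c, and 18.6%, 15.5% and 13.1% in shRRM2. The point values of the 2 groups did not overlap, but many of their exact 95% intervals did. The intervals ran from 7.88% to 13.5%, 8.01% to 14.4% and 5.49% to 11.3% in control, and from 16.1% to 21.3%, 13.2% to 18.1% and 11.0% to 15.4% in shRRM2. Only shRRM2 a lay clear of every control interval. In shRRM2/shp16 the share was 10.9%, 19.1% and 15.5%, across the range of both other groups.

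Between the 2 abundant neighbours, PSG5 gave 0.507, 0.439 and 0.472 reads for each PSG4 read in control and 0.322, 0.316 and 0.311 in shRRM2. All 3 shRRM2 libraries were below all control libraries, with a difference of -0.58 on the log2 scale. A two-sided exact permutation test gave p = 0.1, the smallest that 3 against 3 allows, so the design cannot place this below 0.05. In shRRM2/shp16 the ratio was 0.400, 0.310 and 0.821: a and b lay below every control library and c above, on 35 to 42 PSG4 reads each. No direction is read from these 3 values.

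In RPKM, the CPM per kilobase of gene length, the order of levels in control was PSG4 (2.10 ± 0.149 RPKM, SD, n = 3), PSG5 (1.33 ± 0.0625), then PSG1 (0.144 ± 0.0360) and PSG9 (0.125 ± 0.00407), which overlapped each other. The lower 6 genes ran from 0.0466 for PSG6 to 0.0104 for PSG11, each overlapping the next. In shRRM2, PSG4 (5.59 ± 0.299) and PSG5 (2.37 ± 0.104) kept the first places, and PSG9 (0.544 ± 0.0968) lay above PSG1 (0.381 ± 0.130), which overlapped PSG3 (0.335 ± 0.167). In shRRM2/shp16, PSG4 (0.320 ± 0.0225) and PSG5 (0.221 ± 0.127) overlapped, and the other 8 were at or below 0.0249 with ranges that overlapped from one to the next.

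How well reads can be assigned differs between the genes. Coding sequences of the 10 genes were 66.2% to 94.8% identical over 45 pairs, with a median of 86.4% and the highest value between PSG7 and PSG8. Gaps counted as differences, and the coding sequences were 1005 to 1425 bases long. PSG4 and PSG5 were 92.3% identical. Of all 50-base windows of a gene's GENCODE transcripts, 84.5% were found in no other gene for PSG4, 72.9% for PSG5, 65.4% for PSG9 and 63.4% for PSG8. In windows of 100 bases the share ran from 84.7% for PSG9 to 97.6% for PSG4. Reads that align to several places were tallied apart and not counted for a gene, and how many of them came from PSG genes was not tested. A swap of reads between members would leave the family sum as it is. The strand setting of the counting is not given in the sources used here: PSG8-AS1, on the opposite strand of PSG8, had 4 reads in control, 28 in shRRM2 and 4 in shRRM2/shp16.

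The depth was 15770895 to 24873291 gene-assigned reads per library, and 16561 genes were tested. RRM2, the first hairpin's target, was at 485, 62.0 and 177 CPM in control, shRRM2 and shRRM2/shp16, and CDKN2A, which encodes p16 and a second protein, at 6.01, 6.49 and 4.27. Uniquely aligned reads that were assigned to no feature made up 17.6% to 18.9% in control. The share was 27.7% to 28.8% in shRRM2 and 23.5% to 24.4% in shRRM2/shp16. Such reads may still lie inside the span of a gene, and their part in the PSG results was not tested.

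Among the CEACAM relatives of the PSG genes, 1 of 12 genes was tested and 7 had no read in any library. CEACAM19, whose function is little known, was at 3.12 ± 0.254, 8.63 ± 0.799 and 6.67 ± 0.700 CPM (SD, n = 3). It rose in shRRM2 against control by 1.48 on the log2 scale (adjusted p = 3.7e-13, edgeR) and was also higher in shRRM2/shp16 than in control (1.11; adjusted p = 1.5e-09). CEACAM1 and CEACAM8, which lie near the cluster, were below the filter, at 0.139, 0.529 and 0.225 CPM and at 0.276, 0.316 and 0.244 CPM.

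Of 56 other genes that start within 500000 bases of the cluster, 54 were in the files and 24 were tested. In shRRM2 against control 4 of these neighbours rose and 9 fell, with a median log2 fold change of -0.21. The shares over all tested genes were 29.0% higher and 31.8% lower. In shRRM2/shp16 against control, with 30.0% and 32.4% over all tested genes, 7 neighbours rose and 9 fell (median 0.02). Their largest changes in shRRM2 among genes of at least 1 CPM were in PAFAH1B3, a subunit of an enzyme that inactivates platelet-activating factor (-0.88; adjusted p = 3.5e-15), and XRCC1, a scaffold of DNA single-strand break repair (-0.76; adjusted p = 5.2e-13, edgeR). LYPD3 rose (0.62; adjusted p = 0.0037) and PRR19 fell (-0.49; adjusted p = 0.0052).

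**Figure D4:**
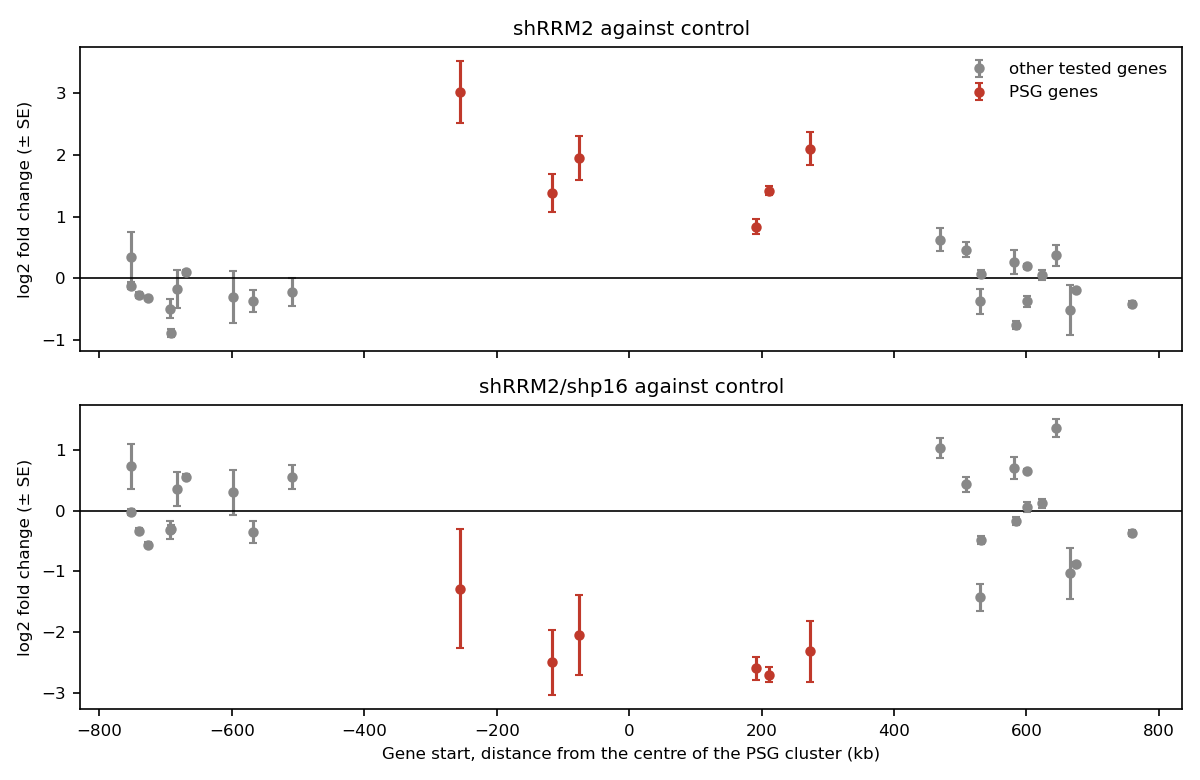
Fitted log2 fold change (± SE, n = 3 per group) of the 6 tested PSG genes (red) and 24 tested neighbours (grey) against the distance of each gene's start from the centre of the cluster in kilobases. In shRRM2 against control the PSG genes lie between 0.84 and 3.02 and the neighbours between -0.88 and 0.62. In shRRM2/shp16 against control the PSG genes lie between -2.70 and -1.28 and the neighbours between -1.43 (ZNF575) and 1.36.

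Transcription factors that have been studied at PSG promoters did not follow the family's order. Of 6 tested, 0 rose and 5 fell in shRRM2 against control, with a median of -0.50. Over all tested genes 29.0% were called higher and 31.8% lower there. In shRRM2/shp16 against control 1 rose and 3 fell (median -0.07), where 30.0% of all tested genes were higher and 32.4% lower. The part of these factors in the PSG results was not tested. KLF4 was at 17.8, 10.1 and 19.8 CPM in control, shRRM2 and shRRM2/shp16 and fell in shRRM2 (-0.84; adjusted p = 1.6e-10, edgeR). KLF6, which binds CACCC-type boxes, was at 374, 254 and 134 CPM and fell in both comparisons (-0.55 and -1.48; adjusted p = 1.8e-19 and 9.1e-35). RXRA, a nuclear receptor partner, fell by 0.56 and GABPB1, a subunit of an ETS-family complex, fell by 0.44 in shRRM2 (adjusted p = 9.7e-15 and 4.9e-09).

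Of 6 genes for TGF-beta and integrin partners of PSG proteins, 3 rose and 3 fell in shRRM2 against control (median 0.10). In shRRM2/shp16 against control 2 rose and 3 fell (median -0.06). Over all tested genes, 29.0% rose and 31.8% fell in the former comparison, and 30.0% rose and 32.4% fell in the latter. TGFB2, a latent TGF-beta ligand, was at 18.3, 34.3 and 52.0 CPM and rose by 0.91 in shRRM2 (adjusted p = 3.5e-15). LTBP1, which anchors latent TGF-beta in the matrix, rose by 0.39 (adjusted p = 7.2e-18), while TGFB1 fell by 0.43 (adjusted p = 6.0e-15) and TGFB3 by 0.30 (adjusted p = 0.031, edgeR).

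The cells carried the markers of fibroblasts. All 12 fibroblast genes on the list were tested. Their summed level was 30490 to 31450 CPM in control, 29140 to 29990 in shRRM2 and 26160 to 26770 in shRRM2/shp16. Against control 2 rose and 8 fell in shRRM2 (29.0% and 31.8% of all tested genes). In shRRM2/shp16 5 rose and 6 fell (30.0% and 32.4%). The log2 fold changes of shRRM2/shp16 against control ran from -1.32 for VIM to 1.43 for PDGFRA. Of 26 trophoblast markers, 8 were tested and 7 had no read in any library, among them the placental hormones CSH1, CSH2 and GH2 and the fusion protein ERVFRD-1. The trophoblast sum was 418 to 435, 734 to 747 and 1913 to 1974 CPM in the 3 groups, the order of which differs from that of the PSG genes. Most of it was PAPPA, a secreted protease that fibroblasts also make, at 262, 605 and 1822 CPM. In shRRM2 against control 4 trophoblast markers rose and 2 fell, where 29.0% of all tested genes were called higher and 31.8% lower. Among them PAPPA (1.21, adjusted p = 3.3e-34), CGA, the hormone alpha subunit (0.96, adjusted p = 0.010), and ERVW-1 (0.77, adjusted p = 0.0035, edgeR) rose. ADAM12 fell (-0.72, adjusted p = 5.6e-18, edgeR).

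Among the epithelial markers, the keratins KRT8, KRT18 and KRT19 were higher in shRRM2 and lower in shRRM2/shp16 than in control. Of 8 genes 5 were tested; 4 rose and 0 fell in shRRM2 against control, where 29.0% of all tested genes were called higher. In shRRM2/shp16 against control 0 rose and 3 fell, where 32.4% were called lower. Their sum was 174 to 179, 225 to 229 and 56.6 to 59.1 CPM, nearly all of it these 3 keratins. KRT19 was at 41.5, 61.6 and 3.06 CPM, and KRT7, from the trophoblast list, at 36.9, 55.0 and 10.4. The defining marker EPCAM stayed at 1.22, 1.27 and 1.07 CPM with no call. CDH1, the other gene of the 4 that rose, was at 0.316, 0.692 and 0.504 CPM. Its log2 fold change in shRRM2 against control was 1.08 (adjusted p = 0.019, edgeR), and it was not called in shRRM2/shp16 against control. KRT5 and SFTPC had 0 reads. The part of these genes in the PSG results was not tested. Of 3 tested endothelial markers and 1 tested leukocyte marker, none was called in shRRM2 against control. There, 29.0% of all tested genes were called higher and 31.8% lower. In shRRM2/shp16 against control 2 endothelial markers were higher, where 30.0% of all tested genes were called higher.

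The genes whose pattern over the 9 libraries was most like the family sum were HHIP, SH2D5, FMN1, SERPINB7 and ANO1, among 11299 genes compared. Likeness was the root mean square difference between log2 CPM values centred on each gene's mean. It was 0.21 for HHIP, a membrane protein that binds hedgehog ligands, with Pearson r = 0.992 as a description. HHIP was at 26.2 ± 1.11, 91.1 ± 1.71 and 5.42 ± 0.920 CPM (SD, n = 3). The difference was 0.33 for SH2D5, 0.34 for FMN1, a formin that builds actin filaments, 0.42 for SERPINB7, of the serpin protease inhibitor family, and 0.42 for ANO1, a calcium-activated chloride channel. These 5 genes lie on 5 chromosomes other than that of the PSG cluster. The 9 libraries fall into 3 groups, so most of each r reflects the group means.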

How the data were processed

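RNA from 9 libraries was measured as gene-level read counts. Per the submitters' processing notes, TopHat2 2.0.9, Cufflinks 2.0.2 and Cuffdiff were used with GRCh38; which step made the counts and its strand setting are not given in the sources used here. The authors deposited raw counts per Ensembl gene, with tally lines that name no gene; these were kept out of library sizes. Between 40.4% and 44.9% of tallied entries were alignments to several places. The authors also deposited log2 values per library, here called RPKM, found by calculation from the counts to be log2(x + 1) with gene length and library size divided out; the deposited column of shRRM2 c matched its counts within 1% for 4.34% of tested genes, and the other 8 for 100%. The deposited table of shRRM2/shp16 against shRRM2 holds FPKM values and a log2 fold change, per the file headers. Its p-values and q-values, deposited by the authors for that comparison, were not used. There were 0 columns that matched no sample.

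Members and gene lists were chosen with earlier results of these data known. The test was edgeR 4.0.16 (R 4.3.3) on the counts: filterByExpr by group, TMM scaling, 1 quasi-likelihood fit of all 9 libraries with 6 residual degrees of freedom, two-sided, with Benjamini-Hochberg adjustment over 16561 genes and a threshold of 0.05. CPM values are counts over TMM-scaled library sizes. Ratios of pooled reads and shares have exact 95% intervals (Clopper-Pearson). The fit was tested on simulated data. Genes named were all 10 PSG genes; from each list, up to 4 of at least 1 CPM with the largest changes past the threshold in shRRM2 against control, and those a count needed; the 5 most like the family sum among genes whose log2 CPM averaged 2 or more; and RRM2 and CDKN2A. ZNF575, KRT7, KRT8, KRT18, KRT19, EPCAM, CDH1, KRT5, SFTPC, CEACAM1, CEACAM8 and PSG8-AS1 were named after their values were seen. Alternatives were RLE factors, DESeq2 1.42.0, other filters, only the libraries compared, a replicate block, limma 3.58.1 on log2 RPKM with pseudocounts of 0.1 and 1, and leaving out each library. Antisense locus AC004784.1 was not analysed here.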

Additional observations from a re-analysis of the deposited data

How the results depend on the processing

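The direction of every fitted PSG fold change was the same under every alternative run. The number of PSG genes called higher in shRRM2 against control was 6; it was 10 with no low-count filter and 3 with a mean of at least 1 CPM, which leaves PSG4, PSG5 and PSG9 in the fit. For genes lower by at least 2-fold in shRRM2/shp16 against shRRM2, 6 became 10 with no filter, 3 with the stricter filter and 2 with limma on log2(RPKM + 1). For genes called lower in shRRM2/shp16 against control, 5 became 3 with the stricter filter and 2 with limma on log2(RPKM + 1). A pseudocount of 1 is above the RPKM of all 10 genes in shRRM2/shp16, and PSG4 and PSG5 had -2.03 and -1.20 there against shRRM2. With limma on log2(RPKM + 0.1) the 3 counts were 5, 5 and 4, and with log2(RPKM + 1) 4 genes were called in shRRM2 against control. Both limma runs used the deposited column of shRRM2 c, which did not match its counts. Without that column, an alternative chosen after seeing the data, log2(RPKM + 0.1) gave 6, 6 and 5. The run on log2(RPKM + 1) was not repeated without it. PSG6 lost its call between shRRM2/shp16 and control (log2 fold change -0.39, adjusted p = 0.161 with a pseudocount of 0.1), as did PSG1 and PSG9 with a pseudocount of 1 (adjusted p = 0.0721 and 0.160).

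With limma on log2(RPKM + 0.1), PSG5 had a log2 fold change of 0.44 in shRRM2 against control and was no longer called (adjusted p = 0.295); this used the deposited column of shRRM2 c, and without that column, an alternative chosen after seeing the data, it was 0.80 (adjusted p = 0.028); in that fit PSG6 was also called lower in shRRM2/shp16 than in control (adjusted p = 0.018). In shRRM2/shp16 against control the median log2 fold change of all genes was 0.11 with limma on log2(RPKM + 0.1), 0.06 on log2(RPKM + 1) and 0.01 with edgeR. The share of calls that were higher was 59.3%, 59.3% and 48.1%, and 61.6%, 61.9% and 52.3% in shRRM2/shp16 against shRRM2. The cause was not tested.

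The log2 ratio of the family sum in shRRM2 against control was 1.35, and 1.24 without PSG4. Leaving out 1 library at a time gave 1.31 to 1.38, -4.12 to -3.80 and -2.78 to -2.45 in the 3 comparisons and changed none of the counts of 6, 6 and 5 genes. A replicate block on the letters also gave 6, 6 and 5. Deviations of same-letter libraries correlated by -0.02 to 0.05, and 3 of 9 libraries correlated best with their own letter. No shared effect of the letters was seen in these values. Whether same-letter libraries were handled together is not given. The 4 genes below the filter, with 3 to 8 control reads, limit what depth can show for them.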
